A study of Hordeum vulgare with 12 samples.

Results

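The genes described here are 197 barley (Hordeum vulgare) genes of RNA biosynthesis, nearly all of them transcription factors, out of 26073 identifiers in the count tables. They were chosen by annotation from 1342 readable rows of the study's list of genes up-regulated with age in wild-type stem bases. A gene is a member where its first MapMan BIN, the functional category given by the Mercator annotation, is RNA biosynthesis. The list holds 201 such genes, of which 4 are not reported here. The members belong to 41 families, and 104 of them are WRKY, NAC, bHLH, MYB or C2H2 zinc finger genes. The stem base is the part of the seedling from which crown roots emerge. Its RNA was sequenced in 4 groups of 3 libraries each. GP-1DAG and GP-10DAG are wild-type cv. Golden Promise (cv. GP) at 1 and 10 days after germination (DAG). AtCKX1-1DAG and AtCKX1-10DAG are barley overexpressing AtCKX1, at the same ages. AtCKX1 comes from Arabidopsis and encodes cytokinin dehydrogenase, which breaks cytokinins down, and by the design text the plants hold less of these hormones. The promoter of the transgene, the number of lines and their background cultivar are not given in the sources used here. In the methods each sample is a pool of seedlings, germination took place on wet filter paper and the older seedlings grew in hydroponics. Age, culture medium and the length of the excised segment cannot be told apart.

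Transcription factors bind short DNA motifs near genes and raise or lower their transcription, and plants hold many of them in large families that share a DNA-binding domain. WRKY proteins are best known from defence, NAC proteins from organ boundaries, secondary walls and senescence, and MYB proteins from cell identity and secondary metabolism. Some LOB domain proteins act downstream of auxin at the start of lateral roots in Arabidopsis and of crown roots in rice. Cytokinins act against auxin in root formation, and their signal ends in response regulators, some of which are themselves transcription factors.

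The libraries held 36100002 to 51997655 reads assigned to genes. Reads outside genes were 22.1 to 24.4% of the reads in the tables and reads aligned to several places were 7.02 to 10.3%. The row of the AtCKX1 transgene had 0 counts in all 6 wild-type libraries, 16, 11 and 18 counts in the AtCKX1-1DAG libraries and 42, 7 and 12 counts in the AtCKX1-10DAG libraries. GP-1DAG replicate 1 stood apart from its group, with a median absolute log2 difference of 0.367 and 0.420 from replicates 2 and 3, which differed from each other by 0.188. GP-10DAG replicate 2 differed by 0.175 and 0.248 from replicates 1 and 3, which differed by 0.215, so it did not stand apart by this measure. The results were also computed without both of these libraries. The other identifiers carry no annotation here, so no marker list of the stem base could be checked. The annotated list does hold 12 photosynthesis genes, markers of green tissue. Their summed CPM, read counts scaled to a common library size, were 168 to 290 in GP-1DAG, 881 to 1055 in GP-10DAG, 194 to 223 in AtCKX1-1DAG and 1218 to 1308 in AtCKX1-10DAG. The sum of these 12 genes was thus higher at 10DAG in both genotypes. Genes that fall with age in wild type are not in the list. In the paper, photosynthesis is among the categories enriched in genes down-regulated at 10DAG, so the 12 do not stand for all photosynthesis genes. Between the genotypes at 10DAG only the sum was higher in AtCKX1: 4 of the 12 estimates were above 0, with a median log2 difference of -0.10, 1 gene was called higher and 1 lower, and 3 were separate and higher against 4 separate and lower. The part of these genes in the differences given here was not tested. These 12 genes come from the same wild-type list, so their rise in wild type was fixed by the choice. In bulk samples such as these, fewer cells of a type and less RNA per cell cannot be told apart.

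Taken over all members, the level of these genes was about as high in AtCKX1 as in wild type at either age. The summed CPM of the 197 members was 1896, 1606 and 1989 in the GP-1DAG libraries and 5040, 5908 and 5528 in the GP-10DAG libraries. It was 1882, 1671 and 1748 in the AtCKX1-1DAG libraries and 5379, 4760 and 5638 in the AtCKX1-10DAG libraries. The genotypes overlapped at both ages, while the ages did not overlap in either genotype. The median member had a mean of 1.89 CPM in GP-1DAG, 7.69 in GP-10DAG, 1.90 in AtCKX1-1DAG and 7.18 in AtCKX1-10DAG. Many members were low at the younger age: 78 had a mean under 1 CPM in GP-1DAG and 77 in AtCKX1-1DAG, against 20 and 22 at 10DAG.

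**Figure D1:**
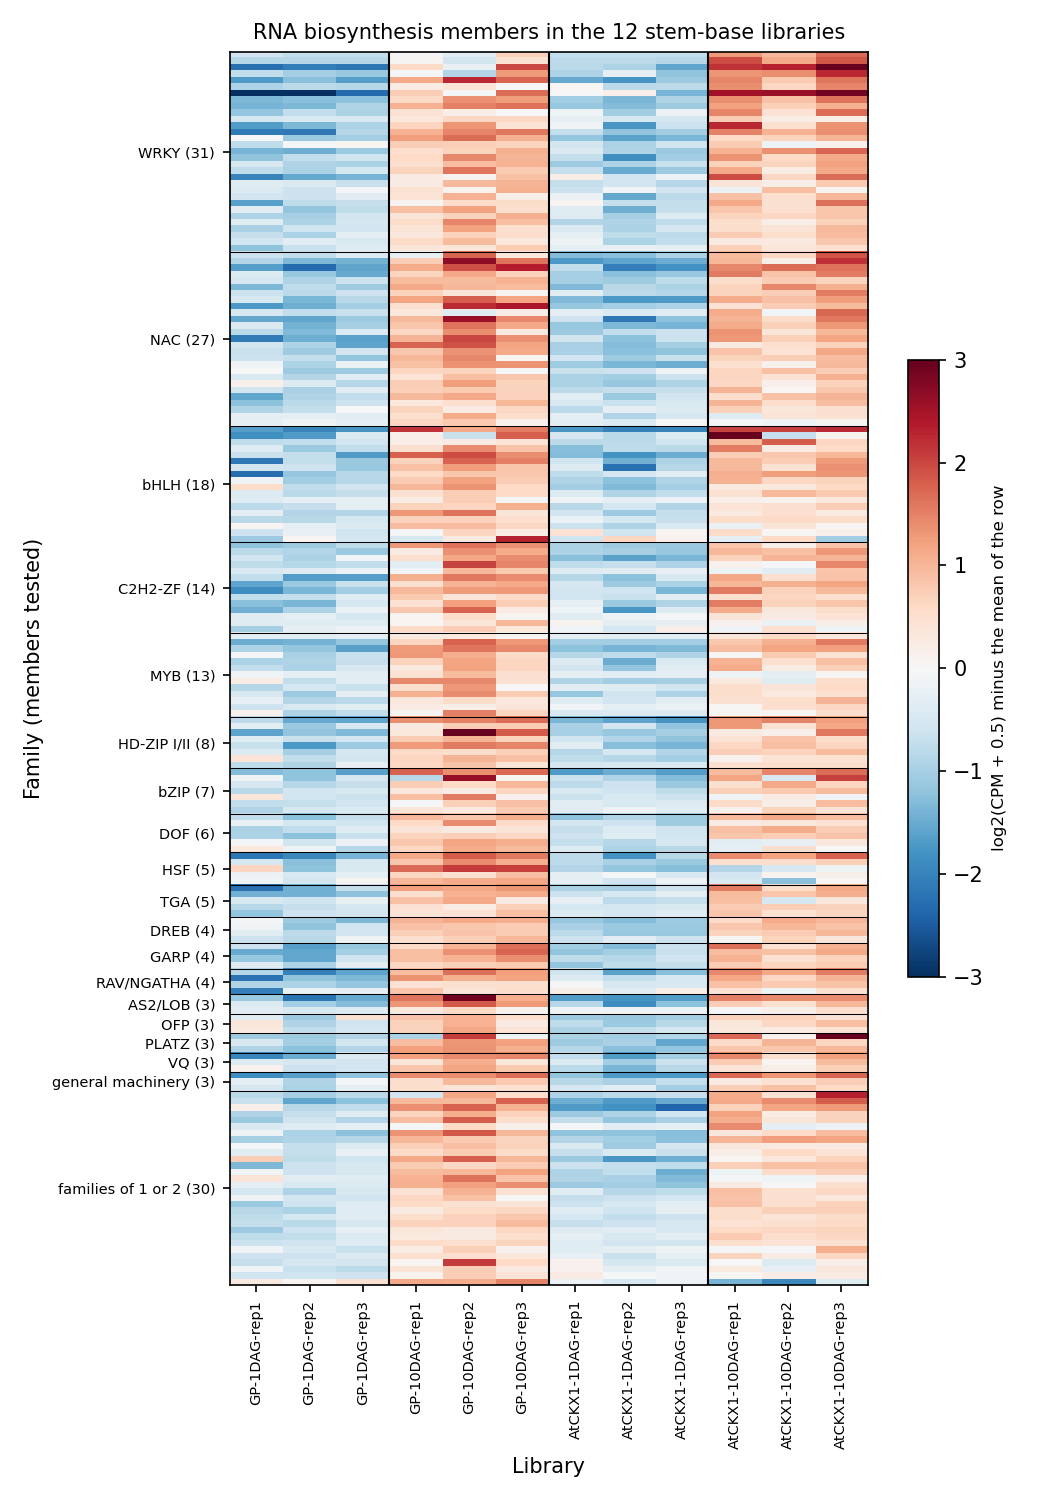
Each row is 1 of 191 members tested, with 1 family not drawn, and each column 1 of the 12 libraries. Colour gives log2(CPM + 0.5) minus the mean of the row, and rows are grouped by family with the number of members in brackets. Both 10DAG groups are mostly red and both 1DAG groups mostly blue, and the HSF rows are paler in AtCKX1-10DAG than in GP-10DAG.

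The change between the ages of wild type chose the members, so it is given as a description with no test. Of 186 members that passed the filter on low counts in the 6 wild-type libraries, 173 were called higher, as were 14.4% of all genes tested. A gene is called where the adjusted p does not exceed 0.05 and the log2 fold change reaches 1 in either direction. In 179 of the 186 members every GP-10DAG library lay above every GP-1DAG library, as in 28.2% of all genes. The median log2 fold change of the members was 1.92, with a range of 1.02 to 5.96. The members nearest the limit were MLOC_63242 at 1.02, MLOC_14761 at 1.04 and MLOC_64240 at 1.05, and none of the 186 lay below it.

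The AtCKX1 libraries took no part in the wild-type comparison behind the list. They show whether the same genes differ between the ages in plants that overexpress AtCKX1. The members and lists were still chosen with earlier results of these data known. Many of the genes named below were picked for a large AtCKX1 age change, so their p are those of picked genes. The counts hold no measure of cytokinin levels. Of 196 members tested, 167 were up-regulated in AtCKX1-10DAG compared to AtCKX1-1DAG, 0 were down-regulated and 29 did not pass the limits. At an unadjusted p under 0.05 edgeR had 1 member lower, against 30.6% of all genes, and DESeq2 called 0 lower. Of the members tested, 10 passed the filter on low counts only with the AtCKX1 libraries, so that high values in AtCKX1 could bring them into the test, and among the other 186 the number up-regulated was 160. The family and list counts below include these 10. Among all 20212 genes tested, 15.8% were called higher and 12.2% lower. The median log2 fold change of the members was 1.84, against -0.01 over all genes. In 175 members every AtCKX1-10DAG library lay above every AtCKX1-1DAG library, a separation that 34.1% of all genes showed. The log2 fold change was between 1 and 2 for 87 of the called members, between 2 and 3 for 50, between 3 and 4 for 19, and 4 or more for 11. The other 1140 readable genes of the same wild-type list, chosen by the same contrast, give the nearest comparison. Of these 1133 were tested and 852 (75.2%) were called higher, with a median log2 fold change of 1.46, while the share of the members was 85.2%. The members already had the larger rise in wild type, with a median of 1.92 against 1.57 for the other listed genes, so the shares are not like for like. When the change itself was tested against 2-fold, 101 members passed in edgeR.

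**Figure D2:**
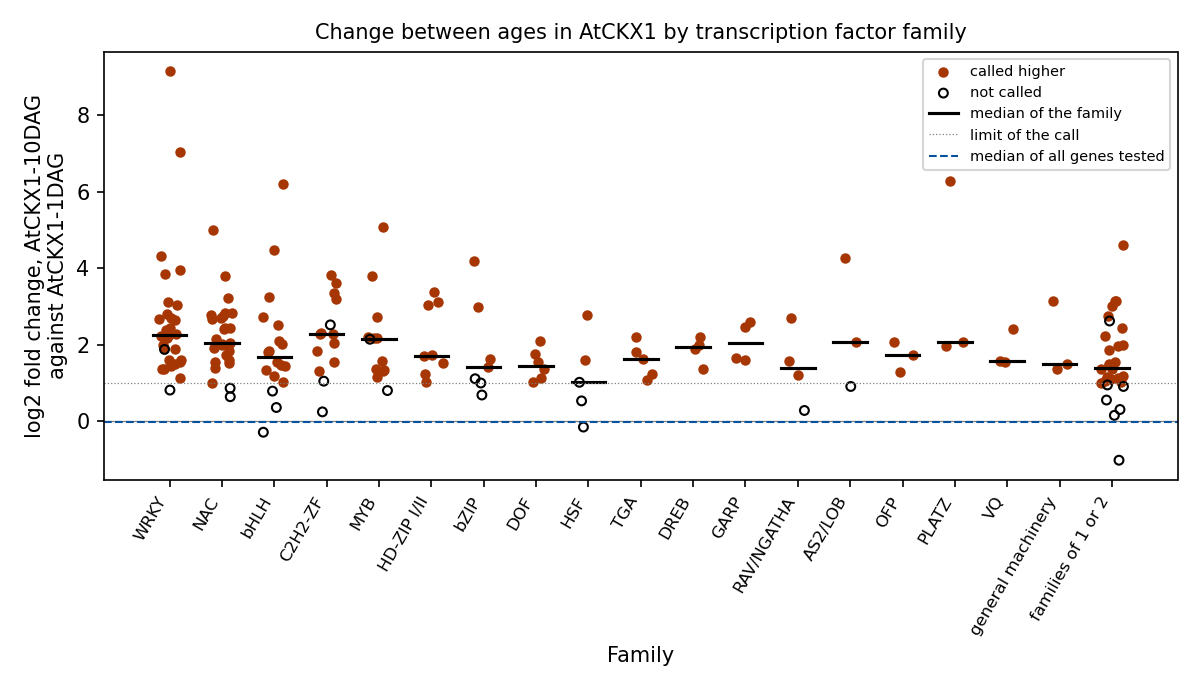
Points are the same 191 members, placed by family on the horizontal axis and by the log2 fold change of AtCKX1-10DAG against AtCKX1-1DAG on the vertical axis. Filled points were called higher, open points were not called, bars are family medians, and the dashed line is the median of all genes tested. All but 3 of them lie above 0, and among families of 3 or more members the highest medians of those drawn belong to C2H2-ZF at 2.27, WRKY at 2.25 and MYB at 2.14.

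WRKY genes, VQ genes and TGA genes made up the defence list, and 37 of its 39 members were up-regulated with age in AtCKX1. WRKY was the largest family, with 29 of 31 members up-regulated and a median log2 fold change of 2.25. In the wild-type libraries alone, 28 of the 31 WRKY genes and 36 of the 39 in the list passed the filter on low counts. WRKY transcription factor 18 (MLOC_11088) had 0 counts in all 3 AtCKX1-1DAG libraries and 1.53, 1.16 and 2.24 CPM in the AtCKX1-10DAG libraries. With 3 counts over the group as the floor, this was at least 68.9-fold higher, and no p is given, since it passed the filter only with the AtCKX1 libraries. In wild type it was at 0.0609, 0 and 0 CPM at 1DAG and at 0.320, 0.164 and 0.883 CPM at 10DAG. WRKY transcription factor 33 (MLOC_57051) had 2 counts in all at AtCKX1-1DAG and 312 at AtCKX1-10DAG, a ratio of 153 with an exact 95% interval of 41.9 to 1267. That interval, like the floor, covers counting error only. Its CPM in AtCKX1-10DAG were 2.96, 1.48 and 2.79, and for the same reason it has no p. In wild type it had 0 counts at 1DAG and 0.452, 0.109 and 0.731 CPM at 10DAG. WRKY transcription factor 31 (MLOC_5971) was at 0.992, 0.862 and 0.364 CPM in AtCKX1-1DAG and 11.2, 12.7 and 20.5 CPM in AtCKX1-10DAG, a log2 fold change of 4.31 (SE 0.63, edgeR adjusted p = 0.000177). All 3 genes were low at 1DAG in both genotypes. They were named for their large rise in AtCKX1, which favours high values in AtCKX1-10DAG. In the whole family, 6 of 31 members were higher at 10DAG in every AtCKX1 library than in any wild-type library and 1 was lower, against 11.6% and 12.1% of all genes, with a median log2 difference of 0.03. MLOC_11088 and MLOC_57051 are among the 6. They entered the test only with the AtCKX1 libraries, so the filter favours the higher direction and no support is drawn from this count.

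At the other end of the family, WRKY DNA-binding protein 3 (MLOC_69575) was among the more evenly read WRKY members. Its CPM were 23.1, 23.8 and 23.6 in AtCKX1-1DAG and 46.9, 36.4 and 40.5 in AtCKX1-10DAG. The log2 fold change of 0.81 (SE 0.20) passed the adjusted p of edgeR at 0.00468 but lay under the fold limit. VQ proteins are partners of WRKY proteins, and all 3 VQ members were up-regulated. A VQ motif-containing protein (MLOC_3237) was at 3.28, 1.47 and 2.62 CPM in AtCKX1-1DAG and 16.7, 8.24 and 14.3 CPM in AtCKX1-10DAG. TGA factors are bZIP proteins that act in the salicylic acid response of Arabidopsis, and all 5 TGA members were up-regulated, with a median log2 fold change of 1.61. The TGA gene MLOC_37092 was at 2.10, 2.07 and 2.74 CPM in AtCKX1-1DAG and 14.0, 6.84 and 10.6 CPM in AtCKX1-10DAG, a log2 fold change of 2.19 (SE 0.43). In all 3 of these genes the AtCKX1 ages did not overlap.

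Among NAC genes 25 of 27 were up-regulated in AtCKX1 with age, with a median log2 fold change of 2.05. A NAC domain-containing protein (MLOC_21966) was at 0.0236, 0.0431 and 0.170 CPM in AtCKX1-1DAG and 1.97, 1.5 and 4.29 CPM in AtCKX1-10DAG, a log2 fold change of 5.00 (SE 0.87, edgeR adjusted p = 0.000597). NAC domain-containing protein 77 (MLOC_5832) was at 0.472, 0.560 and 0.631 CPM in AtCKX1-1DAG and at 5.90, 3.11 and 14.2 CPM in AtCKX1-10DAG, with a log2 fold change of 3.79 (SE 0.64). The NAC domain protein MLOC_4747 was read more deeply, at 4.68, 1.57 and 1.94 CPM in AtCKX1-1DAG and 23.1, 27.0 and 26.3 CPM in AtCKX1-10DAG. These 3 genes were separated by age in AtCKX1, although the spread among the AtCKX1-10DAG libraries of the first pair was wide. The lowest estimate of the family belonged to MLOC_75524, at 0.165, 0.108 and 0.316 CPM in AtCKX1-1DAG and 0.292, 0.259 and 0.368 CPM in AtCKX1-10DAG. Its ages overlapped, and its log2 fold change of 0.64 (SE 0.48) did not pass the test.

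Of 14 MYB genes, 13 were tested in AtCKX1 and 11 were up-regulated, with a median log2 fold change of 2.14. The untested gene is the myb domain protein 21 (MLOC_68593), with 1 count over the AtCKX1-10DAG libraries and a mean of 0.222 CPM in GP-10DAG. Myb domain protein 26 (MLOC_18177), a regulator of anther wall thickening in Arabidopsis, had 1 count in all at AtCKX1-1DAG and 48 at AtCKX1-10DAG. The ratio was 47.0 with an exact 95% interval of 8.04 to 1895. Myb domain protein 37 (MLOC_67874), which acts in axillary meristems of Arabidopsis, was at 1.91, 1.64 and 1.75 CPM in AtCKX1-1DAG and 10.2, 12.3 and 12.7 CPM in AtCKX1-10DAG. Its log2 fold change was 2.73 (SE 0.23, edgeR adjusted p = 4.65e-06), and the values of AtCKX1 lay near those of wild type, 2.48, 2.02 and 1.32 CPM at 1DAG and 13.1, 16.7 and 14.8 CPM at 10DAG.

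In Arabidopsis, MYB36 switches on the genes that build the Casparian strip, the barrier of the root endodermis, and 3 members are annotated as myb domain protein 36. Of these, 2 were up-regulated in AtCKX1. MLOC_5098 was at 0.189, 0.194 and 0.194 CPM in AtCKX1-1DAG and 1.97, 2.45 and 3.68 CPM in AtCKX1-10DAG, a log2 fold change of 3.79 (SE 0.60, edgeR adjusted p = 0.000328). In GP-1DAG the same gene was at 0, 0.0243 and 0.127 CPM, below every AtCKX1-1DAG library, and in GP-10DAG it was at 1.71, 4.34 and 3.00 CPM. Low values in GP-1DAG are favoured by the choice, and 10.1% of all genes were higher in AtCKX1 at 1DAG without overlap. MLOC_5849 was at 1.87, 1.55 and 1.97 CPM in AtCKX1-1DAG and 3.68, 3.93 and 5.73 CPM in AtCKX1-10DAG, a log2 fold change of 1.31 (SE 0.27). The third, MLOC_71129, was at 1.77, 1.83 and 1.80 CPM in AtCKX1-1DAG and 2.67, 2.75 and 4.00 CPM in AtCKX1-10DAG. Its ages did not overlap, but the log2 fold change of 0.80 (SE 0.43) did not pass the test. The 3 genes thus shared a direction in AtCKX1 and differed in size.

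The list on auxin and lateral roots held 8 members, and 5 of them were up-regulated in AtCKX1. It took every LOB gene by family, so a place in it does not show that the gene acts in root formation. LOB domain protein 40 (MLOC_51325) was at 0.401, 0.345 and 0.388 CPM in AtCKX1-1DAG and 7.65, 7.10 and 7.20 CPM in AtCKX1-10DAG, a log2 fold change of 4.27 (SE 0.60, edgeR adjusted p = 0.000154). Its replicates were close in AtCKX1 and far apart in GP-10DAG, at 8.17, 20.6 and 5.6 CPM, after 0.833, 0.122 and 0.507 CPM in GP-1DAG. LOB domain-containing protein 41 (MLOC_58304) was at 11.4, 5.32 and 8.62 CPM in AtCKX1-1DAG and 35.2, 29.6 and 42.3 CPM in AtCKX1-10DAG, a log2 fold change of 2.08 (SE 0.31, edgeR adjusted p = 0.000201). Every AtCKX1-10DAG library lay below the GP-10DAG libraries, which were at 53.3, 76.8 and 51.9 CPM. High values in GP-10DAG are favoured by the choice, and 12.1% of all genes were separate and lower in AtCKX1 at 10DAG. LOB domain-containing protein 13 (MLOC_56075) was under 1 CPM throughout, at 0.213, 0.194 and 0.194 CPM in AtCKX1-1DAG and 0.224, 0.339 and 0.578 CPM in AtCKX1-10DAG. Its log2 fold change of 0.91 (SE 0.47) did not pass the test.

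NAC domain-containing protein 21/22 (MLOC_12466), named after a NAC gene that carries the auxin signal to lateral roots in Arabidopsis, was at 0.496, 0.237 and 0.194 CPM in AtCKX1-1DAG and 1.5, 1.60 and 3.23 CPM in AtCKX1-10DAG. Its log2 fold change was 2.76 (SE 0.47, edgeR adjusted p = 0.000494). A pair of further genes with that description were also up-regulated, MLOC_5165 with 0.401, 0.431 and 0.777 CPM in AtCKX1-1DAG and 1.71, 2.13 and 1.87 CPM in AtCKX1-10DAG, and MLOC_64057 with 4.79, 4.09 and 4.86 CPM and 15.2, 10.7 and 16 CPM. Myb domain protein 77 (MLOC_63274), known to work with auxin response factors in Arabidopsis, was barely read in AtCKX1, with 2 counts at 1DAG and 10 at 10DAG. Its ages overlapped and its change did not pass the test. Wild type was at 0.358, 0.710 and 0.378 CPM at 10DAG, where the choice favours high values, and the difference between the genotypes at that age was not called. WUSCHEL-related homeobox 6 (MLOC_65745), of a family that maintains stem cells, was at 5.22, 4.14 and 3.93 CPM in AtCKX1-1DAG and 4.46, 5.07 and 5.23 CPM in AtCKX1-10DAG. These groups overlapped, and its log2 fold change was 0.15 (SE 0.21). In wild type it was at 2.66, 2.68 and 2.64 CPM at 1DAG and 4.65, 7.56 and 5.75 CPM at 10DAG, so that AtCKX1-1DAG lay above every GP-1DAG library. The choice favours members low in GP-1DAG, and 10.1% of all genes were separate and higher in AtCKX1 at 1DAG.

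**Figure D3:**
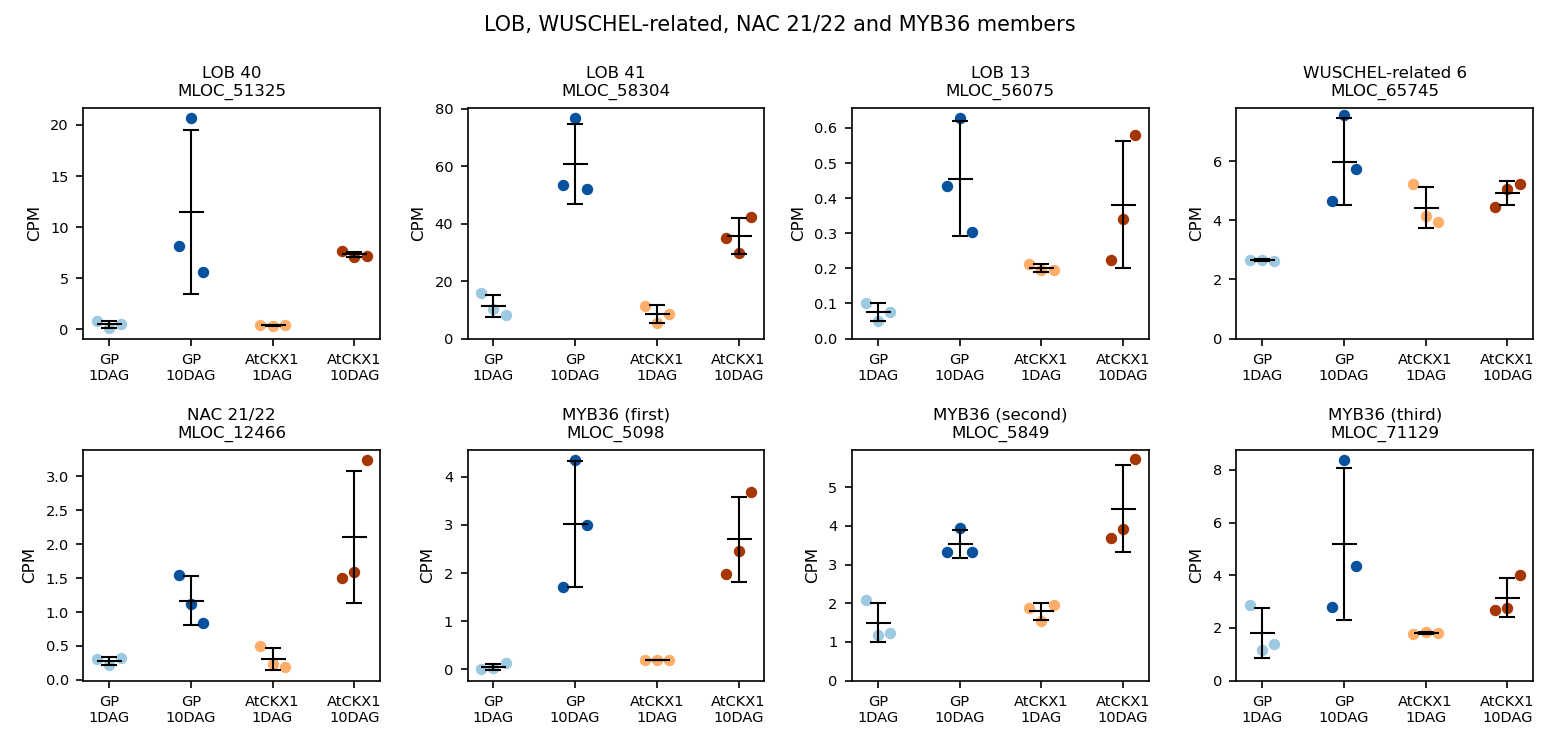
CPM of 8 members in the 4 groups, with 1 point for each library and the mean ± SD over 3 libraries. LOB 40 and LOB 41 rise with age in both genotypes, WUSCHEL-related 6 is level between the ages of AtCKX1, and the 3 MYB36 genes differ in how far the ages stand apart.

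bHLH proteins are a large family with roles from light signalling to iron uptake, and 15 of 18 bHLH members were up-regulated in AtCKX1, with a median log2 fold change of 1.68. MLOC_44850 was at 0.213, 0.0862 and 0.0971 CPM in AtCKX1-1DAG and 9.29, 9.32 and 10.7 CPM in AtCKX1-10DAG, a log2 fold change of 6.19 (SE 0.45, edgeR adjusted p = 2.53e-06). Its wild-type values were 0.264, 0.0973 and 0.203 CPM at 1DAG and 10.3, 4.75 and 6.41 CPM at 10DAG. Another bHLH gene, MLOC_62844, passed the limits through 1 library. It was at 92.1, 1.30 and 2.6 CPM in AtCKX1-10DAG and 1.53, 1.14 and 1.68 CPM in AtCKX1-1DAG, and without AtCKX1-10DAG replicate 1 its log2 fold change went from 4.46 to 0.39 and the call was lost. It was also lost without any 1 of the AtCKX1-1DAG libraries. Of the C2H2 zinc finger genes 11 of 14 were up-regulated, with a median log2 fold change of 2.27. MLOC_15569 was at 0.142, 0.0862 and 0.0728 CPM in AtCKX1-1DAG and 1.73, 0.918 and 1.74 CPM in AtCKX1-10DAG, and Zinc finger protein 2 (MLOC_7605) was at 0.236, 0.215 and 0.146 CPM and 2.31, 2.10 and 3.00 CPM. Both were separated by age, with log2 fold changes of 3.83 (SE 0.53) and 3.61 (SE 0.44).

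Genes that set organ identity and shape formed a list of 20, of which 17 were up-regulated in AtCKX1 with age. All 8 HD-ZIP I/II genes, homeodomain factors with a leucine zipper, were among them. Homeobox-leucine zipper protein 14 (MLOC_5727) was at 1.37, 1.1 and 0.922 CPM in AtCKX1-1DAG and 11.4, 13 and 10.8 CPM in AtCKX1-10DAG, a log2 fold change of 3.37 (SE 0.28, edgeR adjusted p = 4.80e-06). All 3 OVATE family genes, known as regulators of fruit and organ shape in other plants, were up-regulated too. Ovate family protein 13 (MLOC_55596) was at 1.18, 1.12 and 1.26 CPM in AtCKX1-1DAG and 5.25, 5.31 and 4.37 CPM in AtCKX1-10DAG. A MADS box transcription factor (MLOC_52944) had the lowest estimate of all members, -1.15 (SE 0.79), which did not pass the test. It was at 0.0708, 0.108 and 0.558 CPM in AtCKX1-1DAG and 0.0673, 0.0798 and 0.184 CPM in AtCKX1-10DAG, and without AtCKX1-1DAG replicate 3 the estimate turned to 0.26.

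The nutrient list held 5 genes, of which 4 were up-regulated in AtCKX1. A plant regulator RWP-RK family protein (MLOC_51688), of the NLP family that answers to nitrate, was at 5.97, 5.02 and 5.75 CPM in AtCKX1-1DAG and 38.6, 46.9 and 62.6 CPM in AtCKX1-10DAG, a log2 fold change of 3.14 (SE 0.30, edgeR adjusted p = 1.20e-05). Myb domain protein 62 (MLOC_65555), a regulator of the phosphate starvation response in Arabidopsis, was at 9.21, 13.6 and 10.4 CPM in AtCKX1-1DAG and 29.9, 25.4 and 28.6 CPM in AtCKX1-10DAG. Its log2 fold change was 1.34 (SE 0.24), and the GP-10DAG libraries were higher, at 43.8, 56.3 and 35.2 CPM. That direction between the genotypes is favoured by the choice, and 12.1% of all genes showed it at 10DAG without overlap. BHLH transcription factor 1 (MLOC_60455), placed by its annotation in the iron response, was at 41.2, 33.7 and 41.6 CPM in AtCKX1-1DAG and 104, 106 and 129 CPM in AtCKX1-10DAG. MLOC_36351, annotated as a regulator of iron and copper homeostasis, was scattered and overlapped between the ages, at 0.803, 2.52 and 1.65 CPM in AtCKX1-1DAG and 1.14, 2.45 and 0.447 CPM in AtCKX1-10DAG. Its estimate of -0.29 (SE 0.85) did not pass the test.

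Smaller families went the same way. All 6 DOF, all 4 DREB, all 4 GARP and all 3 PLATZ genes were up-regulated in AtCKX1. The GARP gene MLOC_61146 was singled out after its values were seen, because it is described as response regulator 1, the name of a transcription factor of cytokinin signalling in Arabidopsis. It was at 27.1, 36.1 and 37.3 CPM in AtCKX1-1DAG and 104.7, 96.8 and 104.8 CPM in AtCKX1-10DAG, and at 47.4, 32.1 and 50.4 CPM in GP-1DAG and 95.2, 101.7 and 107.1 CPM in GP-10DAG. The genotypes overlapped at both ages, and its log2 fold change with age in AtCKX1 was 1.61 (SE 0.17). Another GARP gene, MLOC_53958, was at 0.614, 0.754 and 1.09 CPM in AtCKX1-1DAG and 4.28, 4.17 and 5.07 CPM in AtCKX1-10DAG. The DREB gene MLOC_8220, of a family known from drought and cold, was at 31.8, 28.7 and 28.7 CPM in AtCKX1-1DAG and 111, 127 and 115 CPM in AtCKX1-10DAG, a log2 fold change of 1.98 (SE 0.21). The PLATZ gene MLOC_26846 had a log2 fold change of 6.29 with a wide error (SE 1.57), as its AtCKX1-10DAG libraries were at 2.89, 0.658 and 8.02 CPM against 0.0472, 0.0215 and 0.0728 CPM at AtCKX1-1DAG. In the wild-type libraries alone, 2 of the 3 PLATZ genes passed the filter on low counts, and MLOC_26846 did not. High values in AtCKX1 could thus bring it into the test, and no support is drawn from its change. In the bZIP family 4 of 7 were up-regulated. MLOC_14243 was at 0.283, 0.409 and 0.316 CPM in AtCKX1-1DAG and 4.44, 6.58 and 7.70 CPM in AtCKX1-10DAG. The bZIP gene MLOC_34679 had a log2 fold change of 2.97 (SE 1.06), and its call was lost without any 1 of AtCKX1-1DAG replicates 1 to 3, AtCKX1-10DAG replicate 1 or AtCKX1-10DAG replicate 3.

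DOF zinc fingers and RAV genes had lower medians, with log2 fold changes of 1.45 and 1.39. Dof zinc finger protein MLOC_7224 was at 11.0, 14.0 and 12.1 CPM in AtCKX1-1DAG and 50.5, 58.0 and 49.1 CPM in AtCKX1-10DAG, a log2 fold change of 2.08 (SE 0.16, edgeR adjusted p = 3.55e-06). The other 5 DOF genes had log2 fold changes between 1.03 and 1.77. Of 4 RAV genes, B3 factors known from Arabidopsis as growth regulators, 3 were up-regulated. The AP2 domain-containing transcription factor MLOC_38822 was at 4.09, 1.79 and 2.38 CPM in AtCKX1-1DAG and 18.6, 15 and 19.7 CPM in AtCKX1-10DAG. MLOC_56567 overlapped between the ages, at 7.44, 4.93 and 7.53 CPM in AtCKX1-1DAG and 9.06, 5.95 and 9.15 CPM in AtCKX1-10DAG, and its log2 fold change of 0.28 (SE 0.44) did not pass the test.

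The other 22 families had 1 or 2 members each, 30 genes in all, of which 23 were up-regulated in AtCKX1 with age. The genes in this paragraph were picked after their values were seen, as examples of well-known families. Both subunits A of nuclear factor Y, which binds the CCAAT box, were among them. Subunit A7 (MLOC_62730) was at 33.2, 30.2 and 25.6 CPM in AtCKX1-1DAG and 126, 147 and 140 CPM in AtCKX1-10DAG, a log2 fold change of 2.21 (SE 0.13, edgeR adjusted p = 8.74e-07). Ethylene-responsive transcription factor 1B (MLOC_80197) was at 0.449, 0.194 and 0.291 CPM in AtCKX1-1DAG and 2.83, 1.52 and 2.02 CPM in AtCKX1-10DAG. A B3 domain-containing transcription factor ABI3 (MLOC_50915), a regulator of seed maturation in Arabidopsis, was at 0.0472, 0.108 and 0.146 CPM in AtCKX1-1DAG and 1.75, 0.938 and 4.81 CPM in AtCKX1-10DAG. All 3 were separated by age, as were 34.1% of all genes in this direction, the last with a wide spread at 10DAG. MLOC_50915 is counted among the 23, but it passed the filter on low counts only with the AtCKX1 libraries. High values there could bring it into the test, so no support is drawn from its separation. BEL1-like homeodomain protein MLOC_62535 overlapped, at 1.35, 0.905 and 1.09 CPM and 1.57, 0.938 and 1.63 CPM, and its log2 fold change of 0.31 (SE 0.37) did not pass the test, while the other BEL1-like gene (MLOC_78149) was up-regulated at 1.87 (SE 0.40). The ZIM motif family protein MLOC_59388, which also passed the filter only with the AtCKX1 libraries, was not called. It was at 0.142, 0.0431 and 0.0486 CPM in AtCKX1-1DAG and 1.30, 0.0599 and 0.105 CPM in AtCKX1-10DAG, so that 1 library held most of its reads.

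Members of the general transcription machinery were 3, and all were up-regulated with age in AtCKX1. The gene described as maternal effect embryo arrest 14 (MLOC_56550) was at 22.8, 15.7 and 15.4 CPM in AtCKX1-1DAG and 171, 132 and 175 CPM in AtCKX1-10DAG, a log2 fold change of 3.15 (SE 0.22, edgeR adjusted p = 1.88e-06). Wild type was at 13.9, 16.5 and 22.3 CPM at 1DAG and 141, 138 and 168 CPM at 10DAG. A subunit of RNA polymerase III (MLOC_66115) was at 32.5, 36 and 22.3 CPM in AtCKX1-1DAG and 77.2, 85.0 and 70.4 CPM in AtCKX1-10DAG. The genotypes overlapped at each age in MLOC_56550, and in MLOC_66115 they overlapped at 1DAG.

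Genes of the clock and of light signalling were 4, of which 3 were up-regulated in AtCKX1. A CONSTANS-like protein (MLOC_22698) was at 6.30, 5.77 and 3.76 CPM in AtCKX1-1DAG and 35.3, 50.3 and 53.6 CPM in AtCKX1-10DAG, a log2 fold change of 3.13 (SE 0.33, edgeR adjusted p = 1.98e-05). Early flowering 3 (MLOC_75281), part of the evening complex of the clock in Arabidopsis, was at 17.9, 15.8 and 15.9 CPM in AtCKX1-1DAG and 33.9, 31.9 and 33.4 CPM in AtCKX1-10DAG. Its log2 fold change of 1.00 (SE 0.11) sat on the fold limit, and it fell under it in 10 of the 12 fits that left out 1 library. The gene described as At5g37260-like (MLOC_62877), placed in the REVEILLE family of clock-related MYB-like factors, went the other way. It was at 3.35, 2.63 and 3.37 CPM in AtCKX1-1DAG and 1.14, 0.639 and 2.87 CPM in AtCKX1-10DAG. Only the third library overlapped with the younger age, and the log2 fold change of -1.02 (SE 0.42) did not pass, with an edgeR adjusted p of 0.0576. Without AtCKX1-10DAG replicate 3 the estimate was -1.81 and passed, at an edgeR adjusted p of 0.000952.

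Heat shock factors (HSF) bind heat shock elements and drive chaperone genes. They had the lowest share of calls of any family of 5 or more, 2 of 5, with a median log2 fold change of 1.02, and the list on heat and protein folding stress had 2 of 6. Heat stress transcription factor A-4a (MLOC_11286) was at 2.95, 1.25 and 2.82 CPM in AtCKX1-1DAG and 15.5, 13 and 19.6 CPM in AtCKX1-10DAG, a log2 fold change of 2.78 (SE 0.36, edgeR adjusted p = 8.65e-05). Heat shock transcription factor 34 (MLOC_57709) was at 9.23, 8.04 and 7.21 CPM in AtCKX1-1DAG and 23.3, 23.5 and 26.8 CPM in AtCKX1-10DAG. The heat shock transcription factor MLOC_63532 was at 0.732, 0.517 and 0.437 CPM in AtCKX1-1DAG and 0.740, 1.14 and 1.55 CPM in AtCKX1-10DAG. These groups only just cleared each other, and the log2 fold change of 1.02 (SE 0.55) did not pass the test (edgeR adjusted p = 0.139). It passed without GP-1DAG replicate 1, at an adjusted p of 0.0320. The HSF gene MLOC_67158 stayed under 1 CPM, at 0.213, 0.345 and 0.146 in AtCKX1-1DAG and 0.0897, 0.439 and 0.5 in AtCKX1-10DAG, against 0.866, 0.710 and 1.14 in GP-10DAG. Heat shock transcription factor A3 (MLOC_69675) was at 2.34, 1.83 and 2.62 CPM in AtCKX1-1DAG and 2.04, 0.958 and 3.13 CPM in AtCKX1-10DAG, overlapping, with a log2 fold change of -0.15 (SE 0.36).

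In all, 29 members did not pass in AtCKX1, and 25 of their estimates were above 0. For 6 of the 29 the adjusted p was at most 0.05 and the fold was too small, and for 7 the estimate was at least 1 and the adjusted p too large. Another 8 called members had a log2 fold change from 1 to under 1.1. Beside the members, 4 genes of the list carry RNA biosynthesis as a later BIN only. Of these, 3 were up-regulated in AtCKX1, as were 15.8% of all genes tested. Only 2 of the 4 passed the filter on low counts in the wild-type libraries. MLOC_12999 and MLOC_75776 did not, with means of 0.371 and 0.255 CPM in AtCKX1-10DAG, so high AtCKX1 values could bring them into the test. Protein TIFY (MLOC_12120), of the family that holds the repressors of jasmonate signalling, had 169 ± 28.6 CPM (SD) in AtCKX1-1DAG and 344 ± 112 CPM in AtCKX1-10DAG. The response regulator MLOC_23250 had 31.4 ± 5.45 CPM in AtCKX1-1DAG and 46.2 ± 1.40 CPM in AtCKX1-10DAG. Its log2 fold change of 0.55 passed the adjusted p at 0.0101 in edgeR but was under the fold limit.

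Wild type and AtCKX1 were then set side by side. Their age comparisons share no library. Across 186 members, Pearson's r between the log2 fold changes was 0.678, given as a description, since members are not independent replicates and all libraries share 1 annotation and 1 counting. Across 19773 genes r was 0.873, and the members span a narrower range because they were chosen for a rise in wild type. The change was smaller in AtCKX1 for 114 of 186 members, a direction that the choice by wild type favours, and for 11394 of 19773 genes.

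**Figure D4:**
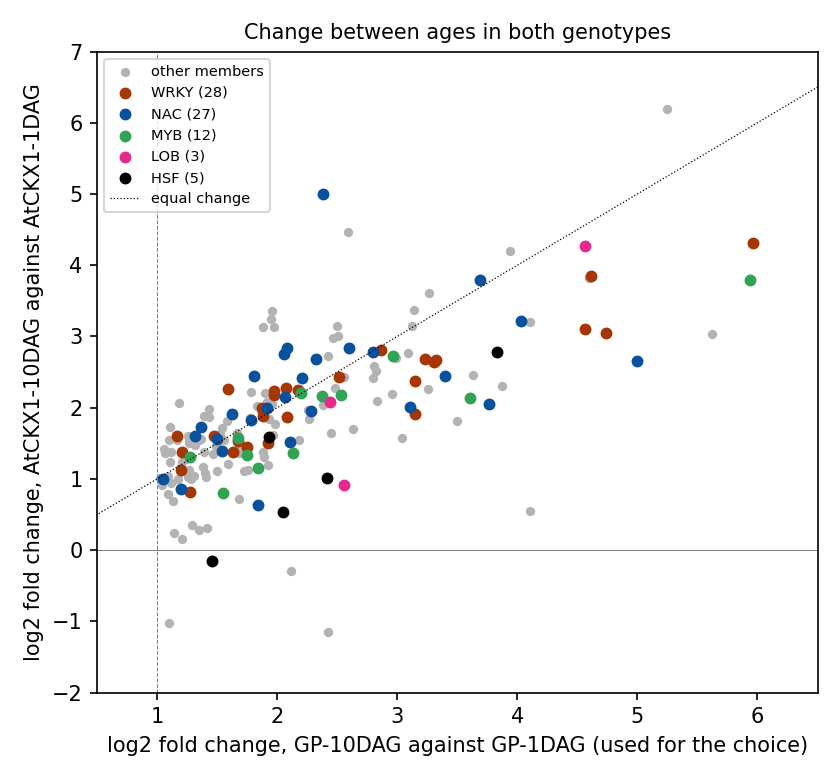
Each point is 1 of 186 members tested in both genotypes, with the log2 fold change of GP-10DAG against GP-1DAG on the horizontal axis and that of AtCKX1-10DAG against AtCKX1-1DAG on the vertical axis. The dotted line marks equal change and the dashed line the limit of 1 used in the choice. The 5 HSF genes and 3 LOB genes all lie below the dotted line, and WRKY and NAC genes lie on both sides.

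For the genotypes at 1DAG, 2 members were called lower in AtCKX1 and 2 higher, of 196 tested, against 0.341% and 0.163% of all genes. The choice favours members that are low in GP-1DAG, so that the lower direction goes against it and the higher direction with it. The median difference of the members was -0.01 on the log2 scale, and 0.03 over all genes. MADS-box transcription factor 15 (MLOC_61901), whose rice namesake acts in the switch of the meristem to flowering, was at 1.14, 0.681 and 1.95 CPM in GP-1DAG and 0.0708, 0.259 and 0.0728 CPM in AtCKX1-1DAG. The genotypes did not overlap, and the log2 difference was -3.18 (SE 0.58, edgeR adjusted p = 0.0375). The CONSTANS-like protein (MLOC_22698) was at 24.3, 11.9 and 12.9 CPM in GP-1DAG, above the AtCKX1-1DAG values of 6.30, 5.77 and 3.76 CPM, a log2 difference of -1.63 (SE 0.31, edgeR adjusted p = 0.0451). A second CONSTANS-like gene (MLOC_61366), of the double B-box class, was at 16.4, 14.3 and 14.9 CPM in GP-1DAG and 9.07, 9.48 and 8.35 CPM in AtCKX1-1DAG. It was lower by less than the fold limit, at -0.76 (SE 0.14, edgeR adjusted p = 0.0418). In all, 18 members were lower in every AtCKX1-1DAG library than in any GP-1DAG library and 21 were higher, against 11.3% and 10.1% of all genes. In the favoured direction, the TGA gene MLOC_58614 was at 0.264, 0.268 and 0.380 CPM in GP-1DAG and 0.826, 0.991 and 1.19 CPM in AtCKX1-1DAG, a log2 difference of 1.72 (SE 0.30). WRKY transcription factor 3 (MLOC_4945) was at 0.426, 0.243 and 1.24 CPM in GP-1DAG and 8.15, 9.16 and 2.84 CPM in AtCKX1-1DAG, a log2 difference of 3.42 (SE 0.64). All 4 calls were lost in a fit of only the 6 libraries compared and in a fit without GP-1DAG replicate 1 and GP-10DAG replicate 2. Leaving out 1 library at a time, the call of MADS-box transcription factor 15 was lost in 8 of 12 fits, that of the CONSTANS-like protein in 10, and those of MLOC_58614 and MLOC_4945 in 8 each, with no change of sign.

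At 10DAG, 4 members were called lower in AtCKX1 and 0 higher, against 0.584% and 0.653% of all genes. Here the choice favours members that are high in GP-10DAG, so the lower direction is given as a description with no p. The higher direction goes against the choice, and 14 members had an unadjusted p under 0.05 in edgeR, where 6.27% of all genes did, while DESeq2 called 1. MADS-box transcription factor 15 was at 2.83, 4.34 and 4.49 CPM in GP-10DAG and 0.314, 0.339 and 0.657 CPM in AtCKX1-10DAG, a log2 difference of -3.16 (SE 0.53), close to that at 1DAG. Its level in AtCKX1 was 0.112 times that of wild type, and within AtCKX1 it was up-regulated with age by 1.65 on the log2 scale (SE 0.59), a call that was lost in 3 of the 12 fits without 1 library. The REVEILLE gene MLOC_62877 was at 9.06, 8.87 and 11.7 CPM in GP-10DAG, after 4.71, 4.01 and 5.45 CPM in GP-1DAG. Its AtCKX1-10DAG values of 1.14, 0.639 and 2.87 CPM lay below all of these, with a log2 difference of -2.69 (SE 0.43). MLOC_63532 of the heat shock factors was at 6.86, 9.28 and 8.88 CPM in GP-10DAG and 0.740, 1.14 and 1.55 CPM in AtCKX1-10DAG, a log2 difference of -2.87 (SE 0.54). Heat shock transcription factor A3 (MLOC_69675) was at 6.5, 7.07 and 7.26 CPM in GP-10DAG and 2.04, 0.958 and 3.13 CPM in AtCKX1-10DAG, a log2 difference of -1.77 (SE 0.37). All 5 HSF estimates were below 0, with a median of -1.40, and 4 of the 5 genes were separate and lower in AtCKX1, against 12.1% of all genes. Among the 196 members tested, 35 were separate and lower and 68 had an estimate above 0. The choice favours this direction in every family. The family medians of WRKY, NAC and MYB were 0.03, -0.18 and -0.26, and that of all members was -0.17.

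Without AtCKX1-10DAG replicate 1 the number of members called lower at 10DAG fell to 0, without AtCKX1-10DAG replicate 2 to 1 and without GP-10DAG replicate 2 to 2, and it rose to 7 without GP-1DAG replicate 1. It was 2 in a fit of the 6 libraries compared. The differences of MADS-box transcription factor 15 and of the REVEILLE gene lost their calls in 2 and 1 of the 12 fits without 1 library, those of MLOC_63532 and MLOC_69675 in 6 and 8. Over these fits the log2 difference ranged from -3.56 to -2.97 for MADS-box transcription factor 15, from -3.47 to -2.31 for the REVEILLE gene, from -3.14 to -2.64 for MLOC_63532 and from -2.21 to -1.43 for MLOC_69675. CONSTANS-like gene MLOC_61366 was again lower by less than the fold limit, at 41.8, 47.6 and 53.2 CPM in GP-10DAG and 24.2, 19.9 and 27.9 CPM in AtCKX1-10DAG, a log2 difference of -0.98 (SE 0.14). In all, 35 members were lower in every AtCKX1-10DAG library than in any GP-10DAG library and 16 were higher, against 12.1% and 11.6% of all genes. WRKY transcription factor 3 was among the higher ones, at 49.8, 52.2 and 64.7 CPM in AtCKX1-10DAG and 14.1, 7.86 and 27.6 CPM in GP-10DAG. At both ages 10 members were lower in AtCKX1 without overlap and 5 were higher, against 3.31% and 2.47% of all genes. TCP transcription factor 14 (MLOC_23537), of a family that acts on cell division in growing organs, was among the former, at 2.86, 1.58 and 1.5 CPM in GP-1DAG and 0.874, 0.819 and 0.534 CPM in AtCKX1-1DAG, then at 4.77, 7.40 and 4.19 CPM in GP-10DAG and 1.95, 1.84 and 2.37 CPM in AtCKX1-10DAG. The log2 difference was -1.41 at both ages, and neither was called.

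**Figure D5:**
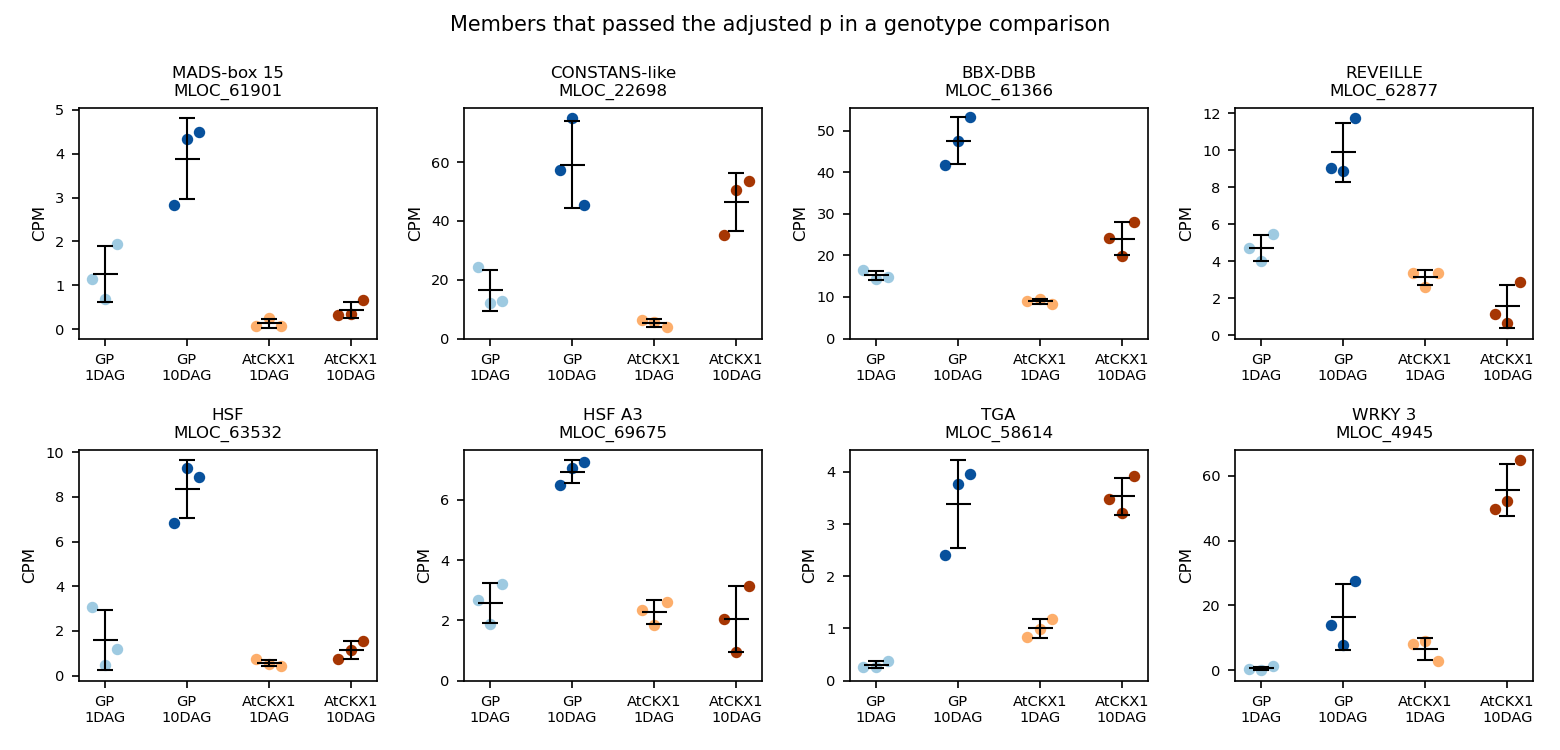
CPM of the 8 members that reached an adjusted p of 0.05 between genotypes at either age, with 1 point for each library and the mean ± SD over 3 libraries. MADS-box 15 and BBX-DBB are lower in AtCKX1 at both ages, REVEILLE and both HSF genes differ most at 10DAG, and TGA and WRKY 3 are higher in AtCKX1 at 1DAG.

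The difference between the age changes of the genotypes was fitted in edgeR over all 12 libraries, and 0 of 196 members were called in either direction. Over all genes 0.406% were called higher and 0.0792% lower. This measure holds the wild-type contrast of the choice, which favours negative values. At an unadjusted p under 0.05 there were 22 members (11.2%) and 7.17% of all genes, and 15 of the 22 were negative. DESeq2 called 4 members lower. The genes given next were taken by their unadjusted p in edgeR, not by the DESeq2 calls. The smallest belonged to the TGA gene MLOC_58614, with a difference of -1.65 on the log2 scale (SE 0.39). It was followed by the RAV gene MLOC_75135 at -1.43 (SE 0.39) and the REVEILLE gene MLOC_62877 at -2.09 (SE 0.58). Next came MLOC_66348 at -1.67 (SE 0.48) and WUSCHEL-related homeobox 6 at -1.02 (SE 0.29). The CONSTANS-like protein MLOC_22698 stood on the other side at 1.28 (SE 0.43). A rise of a member in AtCKX1 that failed the test is therefore not shown to differ from its rise in wild type.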

How the data were processed

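RNA-seq counts of 12 barley stem-base libraries were used. Per the labels and the methods, the authors made them from a stranded library with TopHat on the genome of cv. Morex IBSC_v1, HTSeq 0.6.0 and DESeq2 for their own comparisons. The deposited values are raw counts of reads per gene, with no normalization. Reads outside genes, ambiguous reads and reads aligned to several places were left out of library sizes. Replicates are 3 independent samples per group in the methods.

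The count tables were fitted with edgeR 4.0.16 (R 4.3.3), using its default low-count filter, TMM factors and robust quasi-likelihood tests, with Benjamini-Hochberg adjusted p over every gene in the fit. A call took an adjusted p not above 0.05 together with a log2 fold change of 1 or more in either direction. AtCKX1 ages, genotypes and the difference of age changes came from 1 fit of 12 libraries with 4 group means. Wild-type ages came from the 6 wild-type libraries. Standard errors were derived from the F statistic and are approximate. CPM are scaled by TMM over the 12 libraries, in the order of replicates 1, 2 and 3, and are not comparable between genes, since no gene lengths were at hand. An exact permutation of 3 against 3 libraries reaches no two-sided p under 0.1, so none was used. The script was tested on simulated data.

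The members, the lists and the rule for named genes were chosen with earlier results of these data known. The rule takes the 3 largest called AtCKX1 age changes in WRKY, NAC, MYB, bHLH and C2H2-ZF and the 2 largest in other families of 3 or more, the lowest estimate of each family where not called, all LOB genes, every gene called between genotypes and the 3 largest of each role list. It names 67 genes, of which those that carry the comparisons are described, and a few members outside it were added as examples after their values were seen. Families and lists come from the annotation of the study's supplementary list, whose fold changes were not used. Of the members 0 matched the RefSeq gene table at hand, so no sequences or positions are given. Alternatives were DESeq2 1.42.0, RLE and upper-quartile factors, other filters, other fold limits, no robust dispersion, the replicate block, other sets of libraries and each library left out in turn. One family summary is not reported here.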

Additional observations from a re-analysis of the deposited data

How the results depend on the processing

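The 167 members called higher with age in AtCKX1 became 101 against a tested 2-fold change, and 155 to 170 when each library was left out. The 0 called lower became 1 with the replicate block, and 0 to 1 without single libraries. At 1DAG, the 2 members higher in AtCKX1 became 6 in DESeq2, 1 with the replicate block, and 0 with a minimum of 10 counts, against a tested 2-fold change, in the 6 libraries compared and without GP-1DAG replicate 1 and GP-10DAG replicate 2 together, with 0 to 3 over single libraries left out. The 2 lower became 6 in DESeq2 and 0 in each of those other settings, the replicate block included, with 0 to 2 over single libraries. At 10DAG, the 0 higher became 1 in DESeq2 (0 to 1 over single libraries), and the 4 lower became 7 in DESeq2, 0 against a tested 2-fold change and 2 in the 6 libraries compared (0 to 7 over single libraries). For the difference of age changes, the 0 lower became 4 in DESeq2 (0 to 1 over single libraries), and the 0 higher stayed at 0 to 0. The 173 higher with age in wild type became 79 against a tested 2-fold change (147 to 176 over single libraries). The cause of these shifts was not tested, beyond the stricter limit or the fewer libraries that a setting itself brings.

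Of the 67 named members, 54 were called with age in AtCKX1, 40 kept the call under every alternative that tested them (25 in all 23 and 15 in 22), 14 lost it in at least 1, and 4 that were not called gained it in at least 1. The sign turned in 4 that were not called. When single libraries were left out, MLOC_64108 ranged from -0.033 (without AtCKX1-10DAG replicate 2) to 0.45, MLOC_69675 from -0.60 to 0.16 (without AtCKX1-10DAG replicate 2), MLOC_52944 from -1.69 to 0.26 (without AtCKX1-1DAG replicate 3), and MLOC_36351 from -1.07 to 0.14 (without AtCKX1-1DAG replicate 2), with 0.12 without AtCKX1-10DAG replicate 3. Same-numbered replicates did not pair, since the 18 correlations of their deviations ranged from -0.339 to 0.403 and 2 were above 0.1. With the replicate block the count of members higher in AtCKX1 was 161. With groups of 3 libraries, a member at a few counts could be called only when its change was large.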
